A study of Mus musculus with 6 samples.

Results

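Lin28b, its relative Lin28a, 7 genes of the microRNA processing machinery (Drosha, Dgcr8, Xpo5, Dicer1, Tarbp2, Ago1 and Ago2) and the let-7 target Hmga2 were followed in RNA sequencing of TKO cells, a mouse ovarian cancer line whose name stands for triple knockout. These 10 genes were found by their Ensembl identifiers among the 49315 genes of the count table, and all 10 had enough reads to be tested. They were chosen by their log2 changes and calls in the comparison of KO with WT, so those values are given below as a description and without p-values. The lists of related genes given further below were also chosen with earlier results of these data known. Most genes named from them were picked for a great change in this same comparison. Adjusted p-values of list genes and shares called in a list are therefore descriptions and not independent evidence. The groups were 3 libraries of TKO cells carrying an MNRR1 knockout (KO) and 3 libraries of TKO cells with MNRR1 intact (WT). Both groups carry the TKO background, and the labels do not name the 3 genes that it lacks. The descriptions give the KO libraries 1 clone name, and the labels do not say that replicates were separate cultures. Errors therefore measure only the spread between these libraries, which may be technical. With 1 clone, an effect of MNRR1 loss and a trait of that clone cannot be told apart in any difference given below.

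MicroRNAs are cut from long transcripts in the nucleus by the Drosha and Dgcr8 complex, carried to the cytoplasm by exportin 5 (Xpo5), cut again by Dicer1 with its partner Tarbp2, and loaded into Argonaute proteins, which silence messages that pair with the microRNA's seed. Lin28a and Lin28b are RNA-binding proteins that hold back one microRNA family, let-7, by binding its precursors. They are high in embryonic cells and reappear in many tumours, including ovarian cancers. Hmga2, a chromatin protein of embryonic and tumour cells, is the best-known let-7 target, and the Lin28 messages are let-7 targets themselves.

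The let-7 seed is the part that pairs with target messages, of which Hmga2, Lin28a and Lin28b were named above. Here 4 mature mouse sequences from RefSeq (GRCm38.p6) are shown with the seed, bases 2 to 8, in capitals.
mmu-let-7a-5p: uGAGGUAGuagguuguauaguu
mmu-let-7d-5p: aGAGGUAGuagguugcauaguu
mmu-let-7g-5p: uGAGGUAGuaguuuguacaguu
mmu-miR-98-5p: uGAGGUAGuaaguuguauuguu
Mature sequences under 11 names, listed for 13 genes, carried this seed in the RefSeq entries used. Mirlet7a-2 was not among these genes, although its hairpin holds the let-7a sequence. The names include let-7k and miR-1961, which are not among the hairpins given below. The complement of the seed in a message is CTACCTC, which was searched on the transcript strand only, in the longest 3′ UTR of each protein-coding gene. It was present in 8.95% of 20996 such UTRs, and 12 of them (0.0572%) held 4 or more. Lin28b and Hmga2 each held 4, Ago2 held 3, Lin28a held 2 and Tarbp2 held 1, while the other 5 of the 10 genes held none.

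Of those 14 matches, 5 were followed by an A, the base that often strengthens a microRNA site. They are shown because they lie in Lin28b, Hmga2, Lin28a and Ago2, with the match in capitals, as 22 bases of GRCm38 on the minus strand.
Lin28b, chr10:45381022-45381043: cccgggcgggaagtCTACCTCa
Hmga2, chr10:120364224-120364245: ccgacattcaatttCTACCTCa
Lin28a, chr4:134005189-134005210: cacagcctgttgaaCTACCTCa
Lin28a, chr4:134004551-134004572: agatcgccacaaacCTACCTCa
Ago2, chr15:73097982-73098003: tttacaatgtggatCTACCTCa
A match is a description of the letters and not evidence that let-7 binds there in these cells.

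Library totals ran from 33226463 to 40983999 counts. Chchd2, the gene of MNRR1, stood at 17.1 ± 0.499 CPM in KO against 352 ± 13.7 CPM in WT (SD, n = 3 each), and every KO library lay below every WT library, as labelled. CPM is a gene's scaled count relative to the library's counts in tested genes. Calls, higher or lower in KO, rest on edgeR's quasi-likelihood test with Benjamini-Hochberg adjustment at a threshold of 0.05. Among 16033 tested genes 55.7% were called, 27.8% higher and 27.8% lower in KO, and 64.0% had KO and WT values that did not overlap. Of 14 ovarian epithelial or granulosa markers 11 reached 1 CPM, with summed levels of 3713 to 4061 CPM in KO and 4991 to 5146 CPM in WT, and 2 of them were called higher and 6 lower in KO. Krt7, Msln and Gata4 had mean levels of 81.3, 108 and 10.9 CPM in KO against 299, 281 and 30.8 CPM in WT, and Krt19 and Muc16 had 481 and 414 CPM in KO against 354 and 301 CPM in WT. Wt1 stood at 677 and 719 CPM in the 2 genotypes, KO first, whereas Pax8, Cdh1 and Foxl2 were below 1 CPM in both. Immune markers summed to 3.56 to 4.02 CPM in KO and 5.77 to 12.5 CPM in WT, with Cd3e at 0, and endothelial markers to 2.70 to 3.64 and 5.72 to 6.20 CPM, with Tie1 at 0. Fibroblast markers summed to 941 to 1009 CPM in KO and 883 to 927 CPM in WT, with 2 of 6 called higher and 1 lower. Among them Col1a1 was at 10.3 and Col3a1 at 481 CPM in KO, beside 134 and 268 CPM in WT. Erythroid markers summed to 1.52 to 1.92 and 0.974 to 1.61 CPM. The part of these differences in the results was not tested. In such bulk libraries fewer cells that carry a message and less message per cell cannot be told apart.

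Lin28b (ENSMUSG00000063804, minus strand, chr10:45376620-45486395 in GRCm38) was nearly absent from KO cells. The KO replicates 1 to 3 held 4, 3 and 4 reads of it, against 483, 375 and 421 reads in the WT replicates 1 to 3. All 3 KO libraries sat near the level that a count of 3 gives, which was 0.0737 to 0.0886 CPM, and no WT library came near them. The mean level was 0.0971 ± 0.0211 CPM in KO and 11.8 ± 1.74 CPM in WT (SD, n = 3 each). The pooled KO level was 0.816% of the WT level (95% exact binomial counting interval 0.406% to 1.47%), a 123-fold difference (68.3 to 246). That interval covers counting error only. The fitted log2 change was -6.89 (SE 0.24), and 24 of the tested genes had a lower value.

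Lin28a (ENSMUSG00000050966, minus strand, chr4:134003330-134018841) showed no such loss. It stood at 128, 115 and 136 CPM in KO replicates 1 to 3 and at 121, 127 and 120 CPM in WT replicates 1 to 3. The groups overlapped, with the lowest and the highest value both in KO. The fitted log2 change was 0.04 (SE 0.06), which was not called.

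Set side by side per kilobase of the longest coding transcript, Lin28a was the far more abundant of the pair in WT cells already. WT cells held 34.95 ± 0.992 CPM per kb of Lin28a and 2.19 ± 0.321 CPM per kb of Lin28b, a ratio of 16.2 ± 2.32 (SD, n = 3). Lin28b thus made up 5.90 ± 0.864% of the summed Lin28 message in WT and 0.0496 ± 0.00834% in KO. The sum of both was 37.1 ± 0.970 CPM per kb in WT and 36.0 ± 3.04 CPM per kb in KO, a gap smaller than the SD of the KO libraries. With lengths taken over all exons of each gene, the Lin28b share in WT was 4.09 ± 0.611% and the sums were 32.0 ± 0.847 and 31.6 ± 2.67 CPM per kb.

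**Figure D1:**
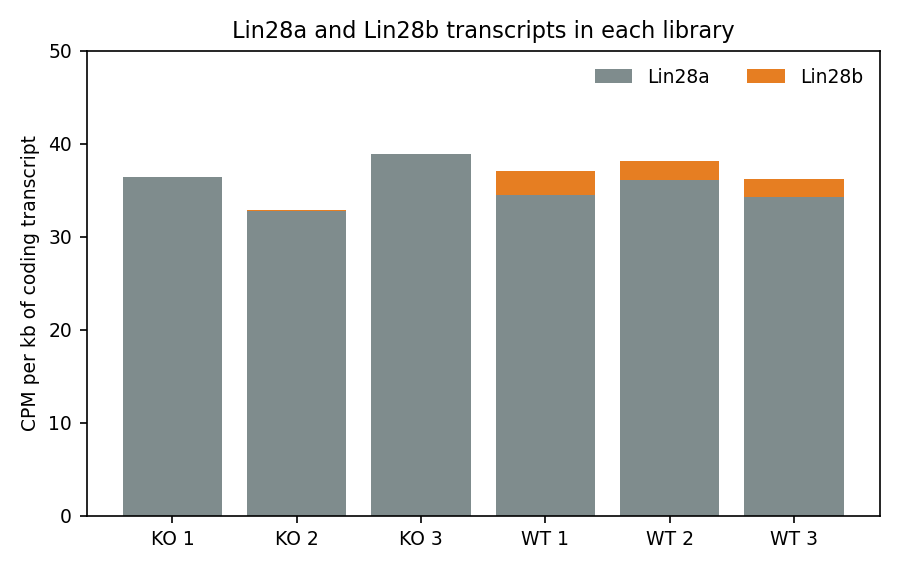
Level of Lin28a and Lin28b messages in each of the 6 libraries, in CPM per kilobase of the longest coding transcript. Lin28a fills nearly all of the summed level in both genotypes, and the Lin28b part, 5.90% of the sum in WT, is not visible in KO.

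The messages of the nuclear step differed in their calls. Drosha, the nuclease that makes the first cut (ENSMUSG00000022191, chromosome 15), was at 191, 197 and 187 CPM in KO replicates 1 to 3 and at 195, 189 and 181 CPM in WT replicates 1 to 3. These values interleave, and the log2 change was 0.03 (SE 0.05). Dgcr8, the RNA-binding partner of Drosha (ENSMUSG00000022718, chromosome 16), was at 73.2, 76.7 and 66.0 CPM in KO and 87.4, 88.6 and 86.8 CPM in WT. Every KO library lay below every WT library, and Dgcr8 was called lower with a log2 change of -0.28 (SE 0.06).

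Xpo5, the export carrier (ENSMUSG00000067150, chromosome 17), was the lowest of the processing genes relative to WT. Its levels were 141, 159 and 122 CPM in KO replicates 1 to 3 against 190, 188 and 188 CPM in WT replicates 1 to 3. The KO libraries differed among themselves far more than the WT libraries did, yet none reached the WT range. The log2 change was -0.43 (SE 0.08), and the gene was called lower.

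For the cytoplasmic cut, the messages of nuclease and partner also differed in their calls. Dicer1 (ENSMUSG00000041415, chromosome 12) was at 69.7, 65.3 and 75.2 CPM in KO and 69.3, 72.5 and 72.0 CPM in WT, with overlapping groups and a log2 change of -0.02 (SE 0.06). Reads were counted over the whole gene, so loss of a single exon would not have to show in this value. Tarbp2 (ENSMUSG00000023051, chromosome 15), which holds the precursor for Dicer1, was at 69.9, 78.5 and 63.8 CPM in KO and 90.4, 94.0 and 85.1 CPM in WT. The groups did not overlap, and Tarbp2 was called lower with a log2 change of -0.34 (SE 0.08).

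Ago1 (ENSMUSG00000041530, chromosome 4), one of the silencing Argonautes, was at 89.6, 78.4 and 90.2 CPM in KO and 58.0, 57.9 and 57.1 CPM in WT. It was the only one of the 10 genes called higher, with a log2 change of 0.58 (SE 0.06), although with library totals Drosha was called higher too, at 0.15. Ago2 (ENSMUSG00000036698, chromosome 15), the Argonaute that can slice its targets, was at 409, 387 and 391 CPM in KO and 436, 436 and 421 CPM in WT. Its groups did not overlap, but its log2 change of -0.12 (SE 0.05) was not called. Without KO replicate 2 it was -0.11 and called lower, and it was -0.0007 when libraries were scaled by their totals. Ago2 was also called lower under an alternative setting that kept every library.

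Of the other Argonautes, Ago3 was at 63.2 ± 2.12 CPM in KO against 49.4 ± 1.43 CPM in WT (SD, n = 3 each) and rose by a log2 change of 0.36 (SE 0.06, adjusted p = 2.99e-04, edgeR's quasi-likelihood test with Benjamini-Hochberg adjustment). Ago4, which lies beside Ago1 and Ago3 on chromosome 4, had at most 2 counts in any library. Per kilobase of exon, Ago2 was 75.3 ± 0.184% of the summed Argonaute level in WT and 66.2 ± 1.05% in KO. Ago1 was 17.4 ± 0.171% in WT and 24.8 ± 1.202% in KO, and Ago3 was 7.30 ± 0.142% and 8.95 ± 0.152%. Ago2 was the most abundant Argonaute message in all 6 libraries.

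Hmga2 (ENSMUSG00000056758, minus strand, chr10:120361275-120476469) was at 40.5, 47.9 and 35.3 CPM in KO replicates 1 to 3 and at 50.5, 49.2 and 45.6 CPM in WT replicates 1 to 3. KO replicate 2 lay inside the WT range and the other two KO libraries lay below it. The log2 change of -0.23 (SE 0.10) was not called, but without KO replicate 2 it was -0.36 and called lower. Hmga2 was also called lower under an alternative setting that kept every library.

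**Figure D2:**
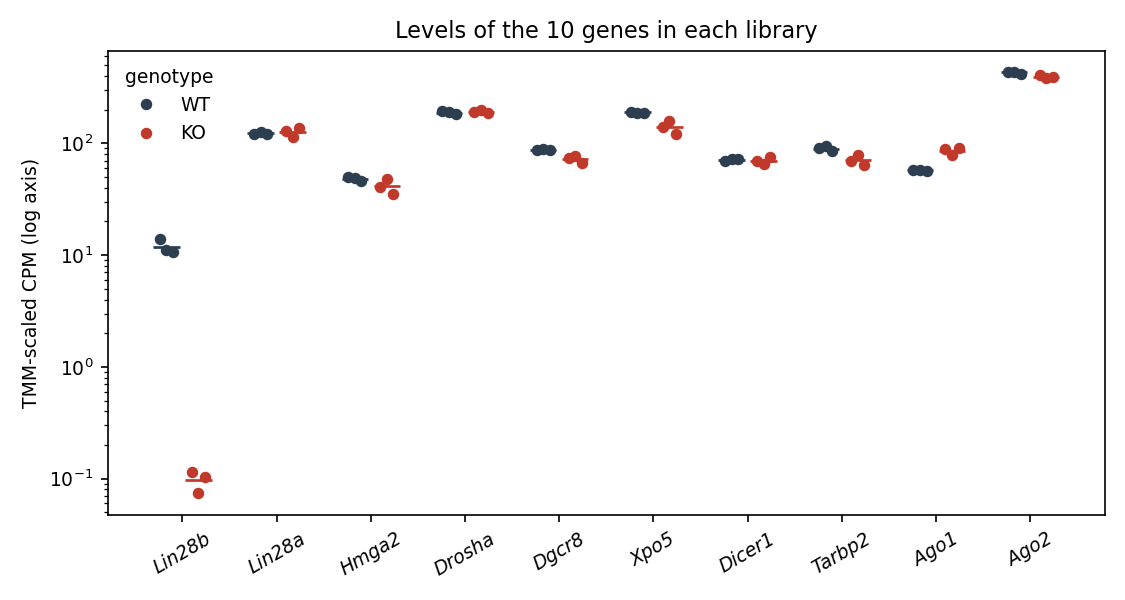
Level of each of the 10 genes in each library, in CPM, with KO and WT libraries side by side and the mean of each group. Lin28b is separated by a wide gap, while Lin28a, Dicer1, Drosha and Hmga2 have KO and WT values that overlap.

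Counted together, 1 of the 10 genes was called higher, 4 were called lower and 5 were not called, against 55.7% called among all tested genes. For 6 of the 10 the genotypes did not overlap, against 64.0% of tested genes. Since the genes were chosen with this contrast known, nothing is read from these counts. Without Lin28b the log2 changes ran from -0.43 to 0.58, with a median absolute value of 0.23, and the median absolute value over all tested genes was 0.35. Relative spread was greater in KO than in WT for 9 of the 10, as it was for 64.2% of tested genes. KO replicate 2 was the KO library nearest to the WT mean for Dgcr8, Xpo5, Ago1, Tarbp2 and Hmga2, and for 58.9% of tested genes.

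**Figure D3:**
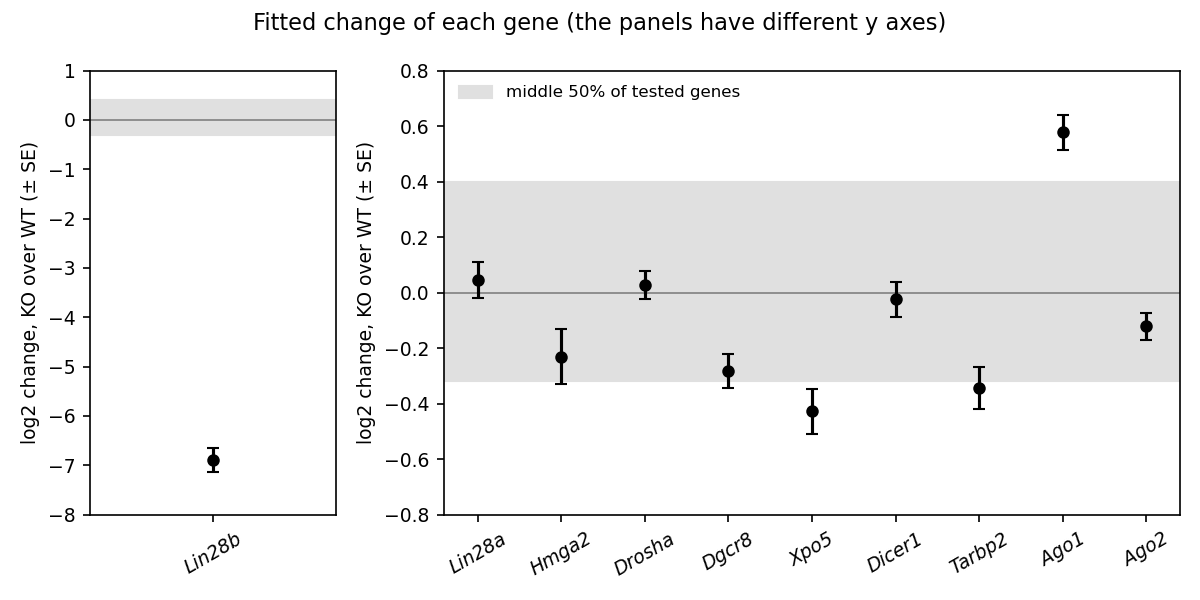
Fitted log2 change of KO over WT for each of the 10 genes with its SE, beside the middle 50% of all tested genes. Lin28b lies far below the band, and the other 9 genes run from -0.43 to 0.58.

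The order of levels depended in part on the length used. Per kilobase of exon in WT, Drosha led at 31.7 ± 1.13 CPM per kb, followed by Ago2 at 30.7 ± 0.624 and Lin28a at 30.7 ± 0.870, and these neighbours did not differ beyond their SD. Xpo5 came next at 27.5 ± 0.181, then Tarbp2 at 19.8 ± 0.981 and Dgcr8 at 11.4 ± 0.120 CPM per kb. Hmga2 and Ago1, at 7.15 ± 0.367 and 7.10 ± 0.0626, were within their SD of each other, Dicer1 was at 4.25 ± 0.104, and Lin28b was last at 1.31 ± 0.191 CPM per kb. In KO, Ago1 stood above Dgcr8 and Hmga2, at 10.6 ± 0.814 against 9.35 ± 0.710 and 6.09 ± 0.934 CPM per kb, and the first 2 of these were within their SD. With the longest coding transcript as the length, Dgcr8 stood above Ago1 in KO as in WT, at 16.7 ± 1.27 against 11.9 ± 0.914 CPM per kb in KO. On that length Tarbp2 came first in both genotypes, but in KO, at 46.4 ± 4.84 CPM per kb, it was within its SD of Drosha at 42.0 ± 1.14.

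The list of nuclear partners of Drosha and Dgcr8, which also held the export GTPase Ran and RNA editing enzymes, changed in both directions. Of its 20 tested genes, 3 rose, 7 fell and 10 did not pass (50%, beside 55.7% of all genes). The median log2 change was -0.06, with 0.01 for all genes. Hnrnpa1, which binds the loops of some precursors, fell by 0.51 on the log2 scale, from 1512 ± 58.1 to 1058 ± 87.5 CPM (SE 0.07, adjusted p = 8.55e-05). Ran, the GTPase whose bound form drives Xpo5 export, fell by 0.41 (SE 0.07, adjusted p = 6.02e-04). Erh, a partner of the Dgcr8 complex, fell by 0.37 (SE 0.06, adjusted p = 2.83e-04), and the RNA editing enzyme Adar rose by 0.33 (SE 0.08, adjusted p = 0.00339). When libraries were scaled by their totals, 7 of these genes rose and 4 fell.

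Of 11 dicing and loading partners 10 were tested, and 2 rose, 2 fell and 6 did not pass. That was 40% called, beside 55.7% of all genes, with a median log2 change of -0.01. Hspa8, a chaperone that helps load Argonautes, fell from 2643 ± 105 to 2099 ± 179 CPM (log2 change -0.33, SE 0.07, adjusted p = 0.00176), and the co-chaperone Ptges3 fell by 0.40 (SE 0.10, adjusted p = 0.00687). Prkra, a second partner of Dicer1, was at 20.95 ± 2.36 CPM in KO against 16.3 ± 1.13 CPM in WT and rose by a log2 change of 0.36 (SE 0.10, adjusted p = 0.00952). Without WT replicate 2 its adjusted p was 0.0505, the highest of 14 alternatives that ran from 1.53e-04. Scaling by library totals gave 5 risen genes here.

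Downstream of the Argonautes, 31 silencing effectors were tested, and 12 rose, 9 fell and 10 did not pass. The share called was 67.7%, beside 55.7% of all genes, and the median log2 change was 0.10. Tnrc6b, a GW182 scaffold that links Argonautes to deadenylases, rose from 122 ± 1.81 to 278 ± 42.9 CPM (log2 change 1.19, SE 0.10, adjusted p = 8.61e-06). Its relative Tnrc6c rose by 0.52 (SE 0.07, adjusted p = 8.48e-05), and Tnrc6a, named after its values were seen, was at 475 CPM in KO against 450 CPM in WT (adjusted p = 0.181). Mov10, an Argonaute-associated helicase, rose from 94.8 ± 1.71 to 188 ± 27.9 CPM (log2 change 0.99, SE 0.09, adjusted p = 1.50e-05). The LIM protein Ajuba fell by a log2 change of -1.001, to 89.6 ± 9.72 CPM from 179 ± 11.9 CPM (adjusted p = 3.84e-06). With library totals 20 rose and 5 fell.

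Lin28a hands bound let-7 precursors to enzymes that add uridines, and 16 genes of let-7 and microRNA turnover were tested. Of these 4 rose, 6 fell and 6 did not pass (62.5%, beside 55.7% of all genes), with a median log2 change of -0.03. With library totals 6 rose and 4 fell. Tut4, the terminal uridyltransferase that Lin28a recruits, rose from 80.4 ± 2.47 to 116 ± 9.23 CPM (log2 change 0.53, SE 0.06, adjusted p = 5.33e-05). Dis3l2, the nuclease that degrades uridylated let-7 precursors, rose from 10.4 ± 0.714 to 15.8 ± 1.87 CPM (log2 change 0.60, SE 0.11, adjusted p = 7.12e-04). Tut7, the relative of Tut4, was at 48.1 and 48.9 CPM in KO and WT (adjusted p = 0.761) and was named after its values were seen. Msi1, an RNA-binding protein that can act with Lin28a, rose by 0.67 (SE 0.13, adjusted p = 0.00105), and Zc3h12a, a nuclease of precursor loops, fell by 0.66 (SE 0.14, adjusted p = 0.00173).

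**Figure D4:**
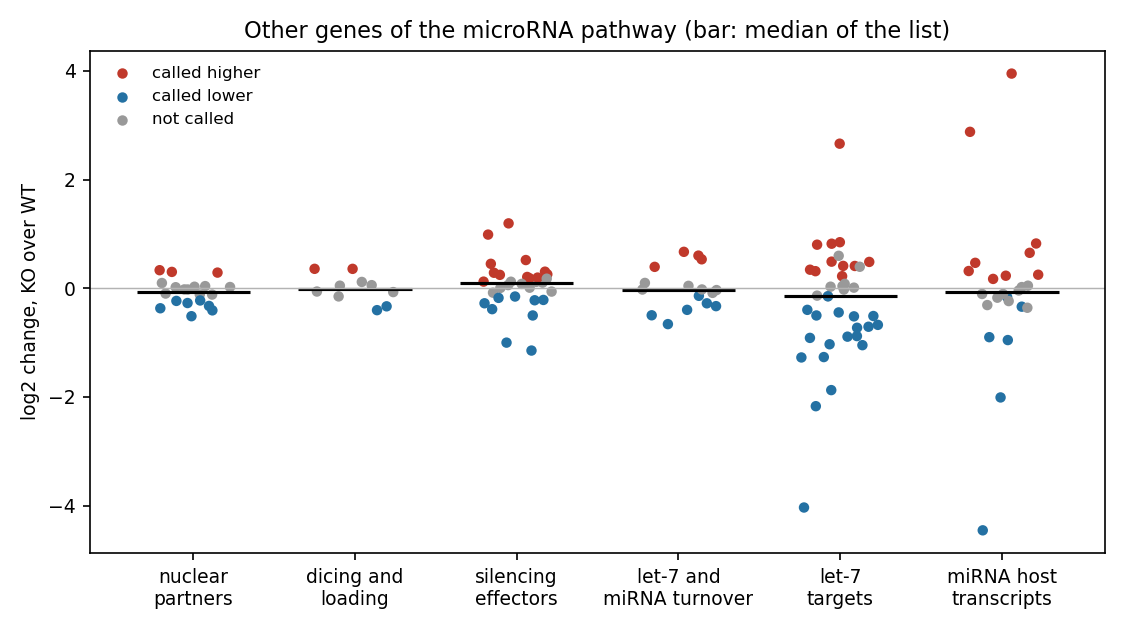
Log2 change of KO over WT for each tested gene of the 6 microRNA lists, with called and uncalled genes marked and the median of each list. Every list holds called genes on both sides of 0, and the medians lie between -0.15 and 0.10.

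The published let-7 targets moved in both directions. Of 40 listed genes 39 were tested, and 11 rose, 19 fell and 9 did not pass. This made 76.9% called, beside 55.7% of all genes, with a median log2 change of -0.15. With library totals 16 rose and 17 fell. The greatest fall among them was that of Gatm, a creatine synthesis enzyme, from 24.6 ± 1.76 to 1.49 ± 0.531 CPM (log2 change -4.04, SE 0.18, adjusted p = 9.67e-08). The cytokine gene Il6 fell by 2.171 (SE 0.31, adjusted p = 1.98e-04), and Plagl1, a zinc finger factor, fell by 1.88 (SE 0.22, adjusted p = 3.68e-05). Ccnd2, a G1 cyclin, was at 12.8, 18.0 and 3.40 CPM in KO replicates 1 to 3 and at 2.00, 1.89 and 1.54 CPM in WT replicates 1 to 3, and rose by 2.66 (SE 0.66, adjusted p = 0.0167). That call was lost in 3 of 14 alternatives, without KO replicate 2 (adjusted p = 0.0817, log2 change 2.15), with no filter (adjusted p = 0.0774) and with limma voom (adjusted p = 0.111). The lowest adjusted p, 1.55e-08, and a log2 change of 3.10 came without KO replicate 3.

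Other let-7 targets are named after their values were seen. Mycn fell from 943 ± 38.8 to 390 ± 68.5 CPM (log2 change -1.27, adjusted p = 1.61e-05), and Hras and Nras fell by 0.89 and 0.50 on the log2 scale (adjusted p = 2.83e-05 and 4.20e-05). Insr, the insulin receptor, rose by 0.85 (adjusted p = 9.69e-05) and Arid3b rose by 0.80 (adjusted p = 2.42e-04). The fetal RNA-binding gene Igf2bp1 was at 240 and 239 CPM in KO and WT (adjusted p = 0.889).

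The listed targets were also split by the seed match. Of the 28 tested with at least 1 match, 9 rose, 11 fell and 8 did not pass, and their median lay at -0.01. Of the 11 without a match, 2 rose and 8 fell, with a median of -0.89, and this difference was not tested.

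The same comparison over all genes showed classes close to one another. Of 12870 tested genes with a 3′ UTR, 11542 held no match, and of these 30.7% were higher and 32.1% lower in KO, with a median log2 change of -0.01. Of 1328 genes with at least 1 match, 32.6% were higher and 31.9% lower, with a median of 0.01, so the medians differed by 0.02. Of 24 genes with 3 or more matches, Lin28b, Hmga2 and Ago2 among them, 8 were higher and 6 lower, with a median of 0.03. In KO replicates 1 to 3 taken singly, the medians of this class were -0.0247, -0.0070 and -0.0310. Those of genes with no match were -0.0120, -0.0024 and -0.0163, so the order of these classes was the reverse. UTRs with a match were longer, at a median of 2354 bases against 1021. Among UTRs over 1781 bases, the medians were 0.01 with a match and 0.00 without (850 and 3437 genes), and among those of up to 664 bases they were 0.10 and -0.02 (112 and 4182 genes).

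**Figure D5:**
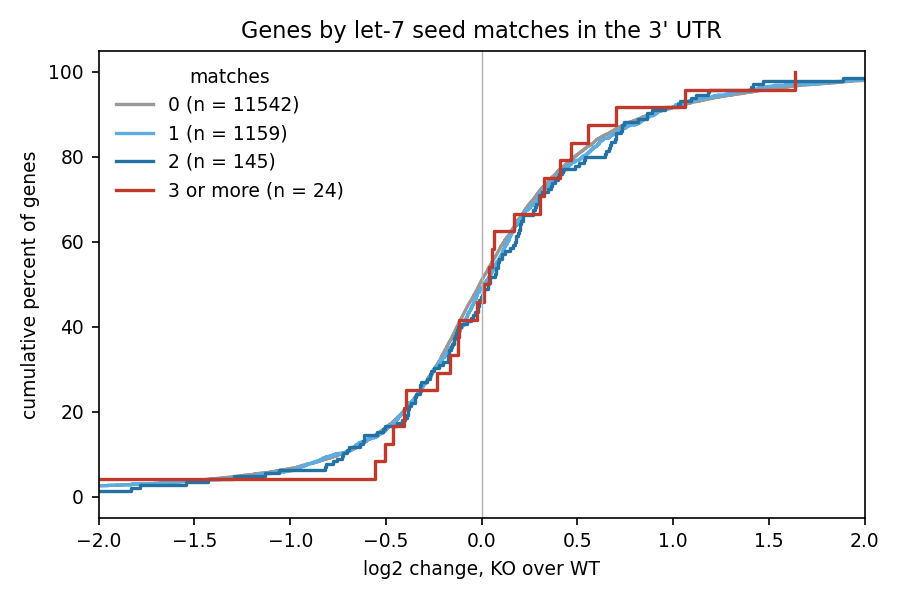
Cumulative share of tested genes by log2 change of KO over WT, for genes with 0, 1, 2 and 3 or more let-7 seed matches in the 3′ UTR. The curves lie close together, the class of 3 or more holds 24 genes, and Lin28b is beyond the left end of the axis.

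Mature microRNAs are not measured in these libraries, but reads on the hairpin genes can be given. Lin28 proteins bind GGAG in the let-7 hairpin, downstream of the seed, and 9 of 12 let-7 and miR-98 hairpins in the RefSeq table held it there, whereas those of let-7b, let-7c-2 and miR-98 did not. GGAG, searched anywhere on the hairpin strand, was present in 44.5% of 1005 mouse hairpins. A hairpin with it (capitals) and one without it are shown from GRCm38.p6, both on the plus strand.
Mirlet7g, chr9:106178840-106178927: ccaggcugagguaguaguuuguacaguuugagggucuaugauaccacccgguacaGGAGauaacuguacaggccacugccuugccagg
Mirlet7b, chr15:85707319-85707403: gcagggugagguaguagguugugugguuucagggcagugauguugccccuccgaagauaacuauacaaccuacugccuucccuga
Of the 12 hairpin genes 6 had no count in any library, 4 had 10 counts or fewer over all 6 libraries, and 2 were tested. Mirlet7b had 16, 24 and 13 counts in KO replicates 1 to 3, beside 17, 29 and 30 counts in the WT replicates, with a log2 change of -0.59 (SE 0.34, adjusted p = 0.163). Mirlet7c-2 had 14, 26 and 13 counts in KO and 17, 23 and 55 in WT, with a log2 change of -0.90 (SE 0.43, adjusted p = 0.0964). Both groups of counts overlapped, and such reads may come from the longer transcript around the hairpin.

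Transcripts that carry microRNAs could be followed at greater depth. Of 28 hosts, 27 matched the table and 24 were tested, and 9 rose, 6 fell and 9 did not pass. The share called was 62.5%, beside 55.7% of all genes. Their median log2 change was -0.07, and 9 fell without KO replicate 2. Mir17hg, host of the miR-17 cluster, fell from 19.1 ± 0.929 to 9.86 ± 0.453 CPM (log2 change -0.95, SE 0.09, adjusted p = 7.51e-06). Mir100hg, whose transcript carries let-7a-2, fell from 28.7 ± 4.08 to 15.4 ± 1.51 CPM (log2 change -0.90, SE 0.11, adjusted p = 6.96e-05). Mest, an imprinted gene that hosts miR-335, fell from 192 ± 11.6 to 47.6 ± 2.33 CPM (log2 change -2.01, SE 0.06, adjusted p = 6.43e-09). Mir155hg had 1, 4 and 0 counts in KO and 33, 51 and 26 in WT and fell by 4.46 (SE 0.64, adjusted p = 1.56e-04), a value that was -5.92 without KO replicate 2 and -3.90 without KO replicate 3.

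The other tested let-7 hosts of the list did not pass. Mirlet7bhg was listed but matched no gene of the count table, and several let-7 genes had no host in the list. Mir99ahg, host of let-7c-1, was at 15.4 ± 0.603 CPM in KO against 18.2 ± 2.09 CPM in WT (log2 change -0.24, SE 0.10, adjusted p = 0.0551). Wdr82, host of let-7g, had a log2 change of -0.11 (SE 0.05, adjusted p = 0.0931), and Huwe1, host of let-7f-2 and miR-98, one of 0.05 (SE 0.05, adjusted p = 0.444).

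Genes around Lin28b were examined because position played no part in choosing it. Of 20 genes within 500 kb, 6 were tested, of which 4 fell and 0 rose, beside 27.8% lower among all genes. Bves, a membrane protein gene 4.14 kb from Lin28b, fell from 13.4 ± 1.41 to 7.83 ± 0.777 CPM (log2 change -0.78, SE 0.11, adjusted p = 1.95e-04). Its relative Popdc3, 58.2 kb away, fell by 0.91 (SE 0.19, adjusted p = 0.00197), and the peptidase gene Prep, 209 kb away, fell by 0.31 (SE 0.07, adjusted p = 0.00276). None of these falls came near that of Lin28b in size. On the other side Hace1, a ubiquitin ligase gene 91.4 kb away, was at 41.5 ± 1.22 CPM in KO against 44.4 ± 1.11 CPM in WT (adjusted p = 0.162).

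The 2 remaining tested neighbours were weakly covered. The pseudogene Gpx4-ps2, whose reads may belong to its parent gene, was at 2.28 ± 0.223 CPM in KO against 3.20 ± 0.154 CPM in WT and fell by 0.49 (SE 0.16, adjusted p = 0.0219). Its adjusted p was 0.0668 without KO replicate 1, 0.0524 without KO replicate 2, 0.0721 without WT replicate 1, 0.0520 without WT replicate 3 and 0.0777 with library totals, in a range over 14 alternatives that began at 0.0209. Gm47503 had overlapping groups (log2 change 0.95, SE 0.62, adjusted p = 0.222), but without WT replicate 3 it was called higher, with a log2 change of 2.24 and an adjusted p of 0.0168, in a range up to 0.507.

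The genes whose profile over the 6 libraries lay closest to that of Lin28b were Sulf1, Sgce, Hoxd8, Bex1 and Hdgfl3. Likeness was the root mean square distance between log2 CPM values centred on each gene's mean, over 9727 protein-coding genes of at least 5 CPM in WT, and the distances were 0.234, 0.242, 0.264, 0.277 and 0.289 against a median of 3.13. Sulf1, an enzyme that trims heparan sulfate, was at 28.1 ± 2.03 CPM in WT and 0.247 ± 0.0652 CPM in KO. Hdgfl3 was at 29.6 ± 1.13 and 0.274 ± 0.112 CPM, and Sgce and Hoxd8 had at most 2 counts in any KO library. Bex1 had 0 counts in all 3 KO libraries and 195, 187 and 231 in WT. At such counts the prior count of 2 used for the log2 values sets much of the drop, so the ranking rests on KO values at or near the floor. The 5 genes lie on chromosomes 1, 6, 2, X and 7, and none is a neighbour of Lin28b.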

How the data were processed

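The authors deposited unnormalized read counts for each Ensembl gene. The submitters' processing notes list STAR 2.5.2b, Subread 1.5.2, Trimmomatic 0.36, bcl2fastq 2.17 and DESeq2, and build GRCm38 (mm10). The strand setting and the handling of multiply mapped reads were not given in the sources used, so overlapping genes and near-identical copies can share reads.

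The main test was that of edgeR 4.0.16 (R 4.3.3) after filterByExpr at a minimum count of 10, with TMM scaling, a robust quasi-likelihood fit with genotype as its only term, and Benjamini-Hochberg adjustment over 16033 genes. The test was checked on simulated data with 200 changed genes, in both directions. Far more genes were called in the real data, so scaling and false calls were not checked at that share. Symbols, exon lengths and UTRs came from GENCODE M21, which matched 49056 identifiers. DESeq2 1.42.0 and limma voom 3.58.1 were alternatives, with other scalings and filters, a replicate block, a stricter threshold of 0.01 and omission of each library. Log2 distances used a prior count of 2.

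The 10 genes and the lists were chosen with earlier results of these data known, so adjusted p-values of list genes are descriptive only. Named beside the 10 genes were up to 4 called genes per list, those with the greatest change among genes reaching 1 CPM, tested neighbours within 500 kb, the 5 nearest profiles, and let-7 genes and hosts. Some genes of the lists are not reported here.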

Additional observations from a re-analysis of the deposited data

How the results depend on the processing

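The log2 change of Lin28b ran from -7.01 to -6.72 over all settings. Scaling by library totals moved the median log2 change of all genes from 0.01 to 0.13 and gave 5771 genes higher and 3294 lower in place of 4463 and 4462. It also gave 2 of the 10 genes called higher, and 7 higher and 4 lower in the list of nuclear partners. With the same scaling 5 dicing and loading partners were higher, 20 silencing effectors were higher and 5 lower, and Hace1 turned to 0.0206. Of the 10 genes, 4 to 6 were called lower under the settings tried, the additional ones being Ago2, Hmga2 or both. Leaving out 1 library at a time gave 1 to 3 dicing and loading partners higher and 2 to 4 lower, 0 to 1 neighbours of Lin28b higher, and a median for genes with 3 or more let-7 matches that exceeded that of genes with 0 by 0.0031 to 0.0392 on the log2 scale, against 0.0368 with all libraries and 0.0225 with a filter of 1 CPM. The cause was not tested. The descriptions give the libraries of both genotypes the same set numbers, and the labels do not say whether these mark pairs. Deviations of same-numbered libraries correlated at -0.059, 0.0513 and 0.0283, and those of differently numbered libraries at -0.0946 to 0.0848. With so few libraries these values cannot settle whether the samples were paired. With the number as a block 4412 genes were higher and 4466 lower, with 1 and 5 of the 10 genes. The block gave 9 microRNA hosts lower in place of 6, as did no filter and omission of KO replicate 2, and 4 turnover genes lower in place of 6. Low counts limit the Lin28b fold, the hairpin genes, Mir155hg and Ago4.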
